A study of Mus musculus with 32 samples.

Results

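Regions cut from the core of adenomas were compared with regions cut from the adenoma border in tumour-bearing MMTV-PyMT; R26-CBW; K8-CreERT2 animals, all female. The members were chosen by the stage and site in the sample labels, which give 3 adenoma core libraries (numbered 24, 25 and 51) and 3 adenoma border libraries (47, 48 and 36), 6 of the 32 laser-captured libraries of the series. In this strain the MMTV promoter drives the polyoma middle T oncogene in mammary epithelium, and the resulting tumours pass through hyperplasia, adenoma and carcinoma. The K8-CreERT2 allele makes a tamoxifen-activated Cre in cells that express keratin 8, and R26-CBW is a multicolour reporter that Cre switches to a fluorescent protein. All groups used here share these alleles, a tamoxifen injection of 5 mg at 5 weeks of age and collection at a late tumour stage, and no group is an untreated or tumour-free control. Patches of a single colour were cut from sections 7 µm thick. The core patches were green (24), yellow (25) and red (51), and the border patches were red (47 and 48) and yellow (36). The number of animals is given as 3, with no patch assigned to one, so patches of a group may share an animal and p-values treat them as independent. The 2 adenoma regions outside the tumour (34 and 50), 6 carcinoma core and 3 carcinoma border libraries are used below only for comparison.

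The core of an epithelial tumour lies farther from the vessels and stroma at its margin than the border does, and poor oxygen supply is known to switch on genes of glycolysis and vessel growth through the hypoxia-inducible factors. The border meets fat, collagen-producing fibroblasts, macrophages and the basal cells that line mammary ducts. Cell division is often most frequent near the margin of solid tumours. The gene lists used below follow these roles, and their values are given by library because the groups are small.

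The 6 libraries held between 2688611 and 14854078 counts and between 10769 and 16835 detected genes, a detected gene being one with at least 1 count. Core libraries had 16835, 14061 and 10769 detected genes (24, 25 and 51), against 14162, 12733 and 12759 in border libraries (47, 48 and 36). The difference of 670 genes was within the spread (exact permutation test over 20 assignments, two-sided p = 0.8, smallest possible p 0.1). The ranges of similarity between libraries of 1 group and between groups overlapped. Spearman's rho across genes, which are not independent, was 0.681 to 0.816 between core libraries, 0.628 to 0.708 between border libraries and 0.588 to 0.776 between a core and a border library. Core 51 stood apart by its low number of detected genes, by a single gene ID that took 57.5% of its counts (5.2 to 35.9% in the other 5 libraries), and by the lowest proliferation score and G2/M sum, both given below. Border 36 stood apart by its interferon, class I antigen presentation, red blood cell and fibroblast genes. For gene lists and for many named genes, estimates are therefore given with and without these libraries. For other genes only the values by library are given, and some of these also rest on core 51 (Kit and Fasn) or border 36 (Lum and Tgfb3).

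The captured material carried the epithelial markers of its label. Krt8, which marks the luminal cells that carry the reporter, was measured at 888, 699 and 1182 CPM (counts per 1000000 of the scaled library size) in core 24, 25 and 51, against 386, 954 and 1276 CPM in border 47, 48 and 36. Its partner Krt18 was measured at 638, 733 and 815 CPM in core and 262, 494 and 628 CPM in border. Epcam, an epithelial surface protein, had 367, 736 and 456 CPM in core and 340, 618 and 812 CPM in border. Cdh1, which encodes E-cadherin, had 118, 198 and 245 CPM in core and 97.2, 190 and 372 CPM in border. All 20 genes of luminal keratins and cell junctions had counts in each of the 6 libraries. The list's median log2 fold change, core over border, was 0.03. Csn3, a milk casein, was among the abundant genes in all 6, with 6784, 9938 and 5839 CPM in core and 5779, 6440 and 13830 CPM in border.

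No gene passed the test of adenoma core against adenoma border. Of 22676 genes tested, 0 (0%) had a Benjamini-Hochberg adjusted p under 0.05 in edgeR's quasi-likelihood test, and the smallest adjusted p was 0.0956. At an unadjusted p under 0.05 there were 2195 genes, 9.68% of those tested, of which 1127 had a higher and 1068 a lower estimate in core. That number depended on the libraries in the fit. It was 427 when only the 6 libraries of the contrast were fitted and 919 with the 8 adenoma libraries. The DESeq2 Wald test on the same genes called 1297 (769 higher and 528 lower in core), and 35 were called by limma voom with sample quality weights (33 higher and 2 lower in core), so the count depended on the tool. The fitted common dispersion was 2.35, which corresponds to a wide scatter between patches of a group. Genes are therefore described below by their values in each library and not as changes.

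Some genes had no overlap between the groups. In 797 genes, 3.51% of those tested, all 3 core libraries lay above all 3 border libraries, and in 531 genes, 2.34%, all 3 lay below. Among genes that averaged at least 10 CPM the shares were 5.51% and 4.11%. With 3 against 3 libraries, random labels leave no overlap, in either direction, with a probability of 0.1 where values are not tied. These counts are therefore a description and no evidence that the groups differ. The genes of smallest p with a mean of at least 20 CPM and at least 10 counts in every library of the higher group follow, as values.

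Cpe, on chromosome 8 (64592542 to 64693109, GRCm38.p6), had the smallest p of all genes. It encodes carboxypeptidase E, an enzyme that trims peptide hormone precursors in secretory granules. It was measured at 97.1, 172 and 176 CPM in core 24, 25 and 51, against 4.8, 0.111 and 0.53 CPM in border 47, 48 and 36. The groups were far apart, with the core libraries close to each other. The log2 fold change was 6.43 ± 1.26 (SE) with unadjusted p = 4.22e-06 and an adjusted p of 0.0956 in edgeR. The regions outside the tumour lay between the groups, with 21.7 and 13.2 CPM. The estimate was 6.15 without core 51 and 5.83 without border 36. With border 47 left out, the estimate was 8.82 and Cpe was the only gene called (edgeR adjusted p = 0.0225), and it was also called without a filter on low counts (adjusted p = 0.0419).

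The other genes described with higher core values owed much of their estimate to core 51. Ccn1, a secreted matrix protein also known as Cyr61, was measured at 10.5, 66.7 and 455 CPM in core and 0.757, 1.77 and 1.48 CPM in border. The log2 fold change of Ccn1 was 7.02 with all libraries and 4.78 without core 51. Nek6, a mitotic kinase, was measured at 65.5, 71.7 and 1277 CPM in core and 27.8, 9.07 and 39.9 CPM in border, and its log2 fold change was 4.20 with and 1.40 without core 51. Med1, a subunit of the Mediator complex, was measured at 58.3, 60.6 and 259 CPM in core and 1.51, 18 and 3.5 CPM in border. For Med1 the log2 fold change was 4.02 with and 2.93 without core 51. For Ikzf2, Gle1, Mau2 and Gm28042 the log2 fold change was 6.62, 4.08, 4.24 and 7.52 with all libraries and 2.37, 1.38, 2.33 and 4.01 without core 51. Mtmr9, a myotubularin-related protein, had 15.6, 11.6 and 211 CPM in core and no count in any border library. Set against a floor of 3 counts over the border group (0.134 CPM), its core mean was at least 593-fold higher, and at least 102-fold higher without core 51.

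Among genes with lower core values, Mfge8 had the smallest p. It lies on chromosome 7 (79133768 to 79149060) and encodes a milk fat globule protein that luminal cells secrete and phagocytes use to take up dying cells. It was measured at 32.9, 99.5 and 19.1 CPM in core 24, 25 and 51, against 133, 1127 and 825 CPM in border 47, 48 and 36. The groups did not overlap, and the lowest border value was close to the highest core value. The log2 fold change was -3.78 ± 0.85, with unadjusted p = 4.66e-05 and an adjusted p of 0.293 in edgeR. It was -3.39 without core 51 and -3.68 without border 36. With reporter colour as a term, edgeR called it at an adjusted p of 0.000207, and without a filter on low counts at 0.0419.

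Mgp, on chromosome 6 (136872435 to 136875823), encodes matrix Gla protein, an inhibitor of calcification. It was measured at 14.6, 38.3 and 1.71 CPM in core and 47.7, 258 and 322 CPM in border. Its log2 fold change was -3.51 ± 1.02, with unadjusted p = 0.00109 in edgeR, and the groups did not overlap. Summed markers of fibroblasts were 52.7 to 489 CPM in core and 163 to 2145 CPM in border, and those of macrophages 159 to 412 CPM in core and 207 to 1816 CPM in border. Their part in the values of Mgp and Mfge8 was not tested.

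Zfhx3, a homeodomain transcription factor, had 8.34, 13.4 and 9.69 CPM in core and 36.9, 141 and 151 CPM in border. Mbd5, a methyl-CpG-binding domain protein, had 2.08, 0.842 and 0 CPM in core and 267, 5.86 and 233 CPM in border. Adgrg2, an adhesion receptor, had 0.634, 1.8 and 0.285 CPM in core and 6.06, 170 and 105 CPM in border. In these 3 genes every core library was below every border library. Tlr4, the receptor for bacterial lipopolysaccharide, and Isoc1 had overlapping groups. Tlr4 had 23.1, 3.79 and 5.42 CPM in core and 265, 22.9 and 269 CPM in border, and Isoc1 had 45.7, 29.5 and 1.14 CPM in core and 16.2, 163 and 892 CPM in border. Without border 36 the log2 fold change of Isoc1 was -1.83, against -3.81 with it.

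**Figure D1:**
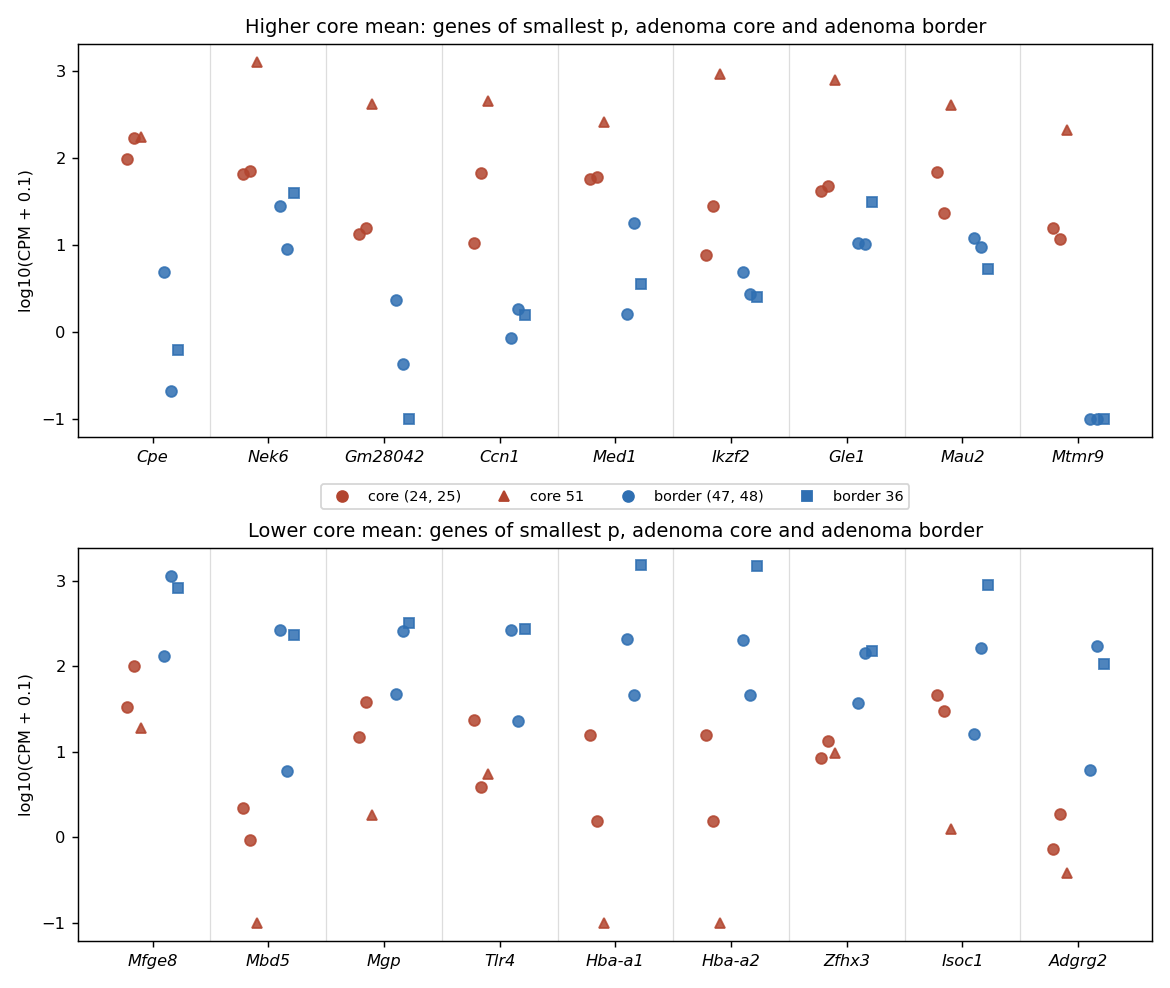
Level of genes of smallest p in each direction, as log10(CPM + 0.1), in the 3 adenoma core libraries (red, left of each gene) and the 3 adenoma border libraries (blue, right). Each point is a library, with core 51 as a triangle and border 36 as a square. Cpe is high in all 3 core libraries, while Nek6, Gle1 and Ikzf2 are highest in core 51.

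Few genes had counts throughout one group and none in the other. In 21 of the 22676 genes tested each core library had at least 10 counts and no border library had any, and in 2 genes (Cfap53 and Oscp1) the reverse held. The border group was less deep, since 3 counts corresponded to 0.134 CPM over border and 0.0963 CPM over core. An absence of counts is thus easier to meet in border, and the 2 numbers are not directly comparable. The 21 include Hspa1a, an inducible heat shock protein, with 15, 0.963 and 4.56 CPM in core. Its core mean of 6.83 CPM, and not each library, was 51-fold above the border floor. They also include Creb5, a transcription factor, with 13.2, 21.8 and 82.1 CPM in core. Raet1d and Raet1e, ligands of the NKG2D receptor of natural killer cells, are among them together with 3 further gene IDs. Raet1d had 3.63, 7.94 and 41.9 CPM in core and Raet1e 3.35, 5.6 and 76.7 CPM. These 5 IDs may share reads, so they are uncertain as separate genes. Cfap53, a protein of cilia, had 80, 23.5 and 1.59 CPM in border.

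Gene lists were set beside the background of all genes, whose median log2 fold change was 0 over the 22676 tested and -0.07 over those that averaged at least 10 CPM. No gene of any of the 29 lists was called, and 511 of 515 list entries were tested. In bulk patches, fewer cells of a type and less RNA per cell cannot be told apart. A list's summed level is the sum of its genes' CPM in a library. In 4 of the 29 lists the 3 core sums all lay below the 3 border sums, and in 0 lists did they all lie above. The 4 were the genes of S phase, of G2/M phase, of basal cells and of red blood cells, and they were also below with the alternative RLE size factors. Those factors put the sums of lymphocyte genes, oxidative phosphorylation genes and regulators of epithelial-mesenchymal transition below as well.

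Genes of cell division were summed at lower levels in adenoma core. The 35 genes of G2 and mitosis summed to 1334, 1376 and 828 CPM in core 24, 25 and 51, against 2091, 2021 and 1995 CPM in border 47, 48 and 36. Of these, 7 had a higher and 28 a lower estimate in core, with a median log2 fold change of -0.65. The 30 genes of DNA synthesis summed to 818, 769 and 943 CPM in core and 975, 1583 and 1290 CPM in border. Here 8 had a higher and 22 a lower estimate, with a median of -0.61. Without core 51 the medians were -0.44 and -0.45, without border 36 they were -0.92 and -1.09, and without core 25 they were -1.14 and -1.46. In 5 of the G2/M genes (14.3%) and 4 of the S-phase genes (13.3%) all core libraries lay below all border libraries, against 2.34% of all genes and 4.11% of genes that averaged at least 10 CPM. Carcinoma core against carcinoma border did not show this direction. There the G2/M genes had 23 higher and 12 lower estimates (median 0.24), and the S-phase genes 21 higher and 9 lower (median 0.25).

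Single members illustrate the spread. Mki67, the gene of the Ki-67 proliferation antigen, was measured at 130, 127 and 22.8 CPM in core and 158, 215 and 134 CPM in border. Its log2 fold change was -0.86 ± 0.76, and the core value nearest to border, 130 CPM, differed little from the lowest border value. Birc5, which encodes survivin, had 31.6, 30 and 2 CPM in core and 50.2, 117 and 84 CPM in border, with a log2 fold change of -1.98 ± 0.91. Ccnb2, a mitotic cyclin, had 34.4, 31.2 and 0 CPM in core and 105, 111 and 70.5 CPM in border. Mcm5, a subunit of the replicative helicase, had 34.2, 60.2 and 0.57 CPM in core and 81.8, 134 and 135 CPM in border. Other members went the other way or overlapped. Cdk1, the mitotic kinase, had 65.1, 73 and 0.57 CPM in core and 20.2, 0.996 and 2.54 CPM in border, and Top2a, a mitotic topoisomerase, had 95.6, 233 and 8.55 CPM in core and 167, 56.4 and 45 CPM in border.

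A proliferation score gives each gene equal weight on a log scale. It averages log2(CPM + 1) across the 65 genes of both lists and was 4.54, 4.41 and 1.93 in core 24, 25 and 51, against 4.57, 4.84 and 3.99 in border 47, 48 and 36. The means were 3.62 ± 1.47 in core and 4.47 ± 0.43 in border (SD, n = 3 each), a difference of -0.84 (exact permutation test, two-sided p = 0.5). The difference rested on core 51, since it was 0.01 without that library. In core 51 only 24 of 35 G2/M genes and 14 of 30 S-phase genes had a count. The scores of core 24 and 25 lay within the border range while their sums lay below it. The regions outside the tumour scored 5.29 and 4.84. Carcinoma core scored 3.59 to 5.18 (median 4.39, n = 6) and carcinoma border 4.07 to 4.74 (n = 3).

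**Figure D2:**
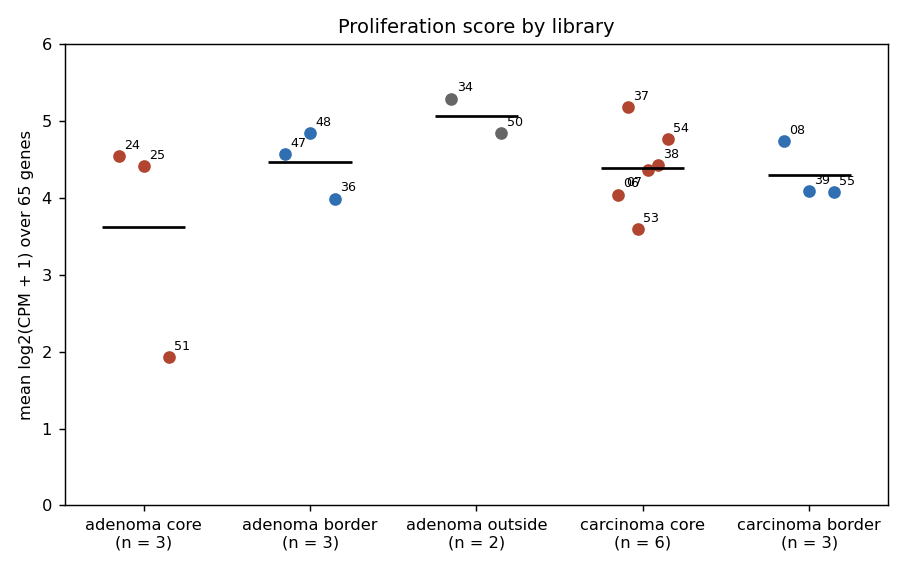
Proliferation score (mean log2(CPM + 1) of the 65 S-phase and G2/M genes) in each adenoma and carcinoma library, labelled by its number. Lines mark group means, and core 51 at 1.93 lies below all other libraries, while the other 2 adenoma core libraries lie at 4.54 and 4.41.

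Genes of low oxygen did not separate the groups as a list. Of 26 hypoxia genes, 16 had a higher and 10 a lower estimate in core, with a median log2 fold change of 0.31. As single libraries were left out this median lay between -0.12 (without border 36) and 1.49 (without border 47), and it was 0.05 without core 51. Car12, a membrane carbonic anhydrase, was measured at 164, 152 and 673 CPM in core and 82.1, 37.8 and 59.2 CPM in border, with a log2 fold change of 2.47 ± 0.96 that was 1.35 without core 51. Angptl4, a secreted inhibitor of lipoprotein lipase, was measured at 0, 1.02 and 0 CPM in core and 8.84, 39.4 and 25.7 CPM in border. These members of the list thus lay in opposite directions without overlap. Slc2a1, the glucose transporter GLUT1, had 71.4, 34 and 0 CPM in core and 51.5, 16.8 and 7 CPM in border. Vegfa, the main vessel growth factor, had 14.7, 6.62 and 3.14 CPM in core and 5.05, 0.996 and 4.24 CPM in border.

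Metabolic lists stayed near the background. The 16 glycolysis genes had a median log2 fold change of 0.12, with 9 higher and 7 lower estimates, and it lay between -0.38 and 0.14 as single libraries were left out. Ldha, which makes lactate, had 1332, 934 and 1244 CPM in core and 846, 1050 and 1319 CPM in border. Pfkp, a phosphofructokinase, was the glycolysis gene of smallest p, with 31.2, 12.8 and 0.285 CPM in core and 43.9, 92.6 and 140 CPM in border. The 20 genes of oxidative phosphorylation had a median of -0.42 (7 higher and 13 lower), and the 38 ribosomal protein genes a median of -0.18 (11 higher and 27 lower). The 21 genes of sterol and fatty acid synthesis had a median of 0.21. In that list Fasn, the fatty acid synthase, had 345, 323 and 824 CPM in core and 269, 269 and 321 CPM in border. Psat1, an enzyme of serine synthesis from the list of unfolded protein and amino acid stress, had 43.8, 16.8 and 1.14 CPM in core and 239, 79.9 and 178 CPM in border, again without overlap.

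The summed level of red blood cell genes was lower in each core library than in any border library. It was 41.2, 24.2 and 0 CPM in core 24, 25 and 51, against 468, 141 and 4516 CPM in border 47, 48 and 36. The median log2 fold change of the 7 genes tested was -5.65, and it was -2.59 without border 36. In 4 of the 7 genes (57.1%), all globins, every core library lay below every border library, against 2.34% of all genes and 4.11% of genes that averaged at least 10 CPM. Hba-a1 and Hba-a2, the alpha globins, had nearly the same values and may share reads, and counted as 1 signal they leave 3 of 6. The beta globins Hbb-bs and Hbb-bt also varied together and may share reads, so the globins are not independent genes. Hbb-bt had 2.18, 5.84 and 0 CPM in core and 18.7, 12.9 and 426 CPM in border. Hba-a1 was measured at 15.8, 1.44 and 0 CPM in core and 205, 46.4 and 1499 CPM in border. Hbb-bs, a beta globin, had 6.8, 15.5 and 0 CPM in core and 41.7, 34.8 and 1066 CPM in border. Alas2, the haem synthesis enzyme of red cell precursors, had at most 0.774 CPM in the other 5 libraries and 41.4 CPM in border 36.

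Endothelial genes did not follow the red blood cell genes. Of 15 endothelial genes, 13 had a higher and 2 a lower estimate in core, with a median log2 fold change of 1.85 that was 0.99 without core 25, 2.25 without core 51 and 2.21 without border 36. Their summed levels overlapped, with 56.1, 137 and 15.4 CPM in core and 46.2, 35.5 and 4.24 CPM in border. All were low. Pecam1, the adhesion protein CD31, had 2.9, 20.3 and 0 CPM in core and 1.01, 0 and 0 CPM in border, and Cdh5, the endothelial cadherin, had 3.08, 27.5 and 0.57 CPM in core and 7.07, 0.664 and 0.954 CPM in border. Core 25 held the highest endothelial sum.

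The lists of basal cells, fibroblasts, macrophages and lymphocytes had medians below 0, and several of these rested on border 36. The endothelial and adipocyte medians were above 0. Basal cell genes summed to 65.3, 78 and 43.6 CPM in core and 166, 133 and 477 CPM in border, with 2 higher and 12 lower estimates of 14 and a median of -2.25 (-0.89 without border 36). Although the sums did not overlap, in 0 of the 14 genes (0%) did every core library lie below every border library, against 2.34% of all genes. The defining marker Krt14 had 12, 8.12 and 0 CPM in core and 30.6, 13.3 and 4.03 CPM in border, while Krt5 was at 0 in core 24, core 51 and border 47. Fibroblast and matrix genes had a median of -1.02 (5 higher and 14 lower of 20). That median was -0.43 without core 51 and 0.81 without border 36, whose sum of 2145 CPM compares with 254 and 163 CPM in border 47 and 48. Col3a1, a fibrillar collagen, had 11.5, 23 and 14.3 CPM in core and 37.1, 17.7 and 149 CPM in border. Lum, the collagen-binding lumican, had no count in core and 0.757, 0.332 and 114 CPM in border.

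Macrophage and class II antigen presentation genes had 2 higher and 15 lower estimates of 17, with a median of -1.49 that was -0.90 without core 51 and -1.18 without border 36. Their sums overlapped, at 412, 363 and 159 CPM in core and 207, 508 and 1816 CPM in border. Tyrobp, an adaptor of myeloid receptors, had 5.26, 4.27 and 0.285 CPM in core and 23.2, 9.62 and 81.3 CPM in border. The defining markers pointed in different directions. Csf1r, the receptor of a macrophage growth factor, had 25.7, 29.5 and 6.84 CPM in core and 0.252, 92 and 104 CPM in border. Cd68, a lysosomal protein of macrophages, had 2.36, 28.9 and 70.1 CPM in core and 0.252, 3.21 and 8.8 CPM in border.

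Other cell types were near the limit of detection. Adipocyte genes had a median log2 fold change of 3.47, or 0.81 with genes absent from a group set at their floor. The fitted median was 0 without core 24, 0.77 when only the libraries of the contrast were fitted and -1.77 with the 8 adenoma libraries. Adipoq and Plin1 were at 0 in all border libraries and at most 1.81 CPM in core. Lymphocyte genes had a median of -3.56, or -2.03 at the floor, and the fitted median was 0 without border 36 and -0.18 without border 47. Their sums were 5.62 to 34.4 CPM in core and 32.9 to 134 CPM in border. Cd79a, a B-cell marker, was at 0 in all 6 libraries. Muscle sums stayed at or below 26.5 CPM and lung sums at or below 6.68 CPM in all 6. In the neutrophil list Lcn2, a secreted lipocalin also made by epithelium, held nearly all of the counts, with 2576, 3532 and 2929 CPM in core and 2111, 3222 and 3262 CPM in border.

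Interferon and class I antigen presentation genes set border 36 apart from the other 5 libraries. Interferon response genes summed to 697, 364 and 334 CPM in core 24, 25 and 51, against 237, 194 and 4062 CPM in border 47, 48 and 36. The median log2 fold change of the 25 genes was -1.78 with 7 higher and 18 lower estimates, and without border 36 it was 2.27 with 19 higher and 6 lower. Class I genes summed to 3546, 1361 and 989 CPM in core and 422, 1442 and 21634 CPM in border, and their median of -1.95, with 1 higher and 9 lower estimates, turned to 9 higher and 1 lower without border 36. B2m, the light chain of class I molecules, had 590, 182 and 91.8 CPM in core and 77.8, 241 and 7817 CPM in border. The sign of both lists was thus set by 1 library.

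**Figure D3:**
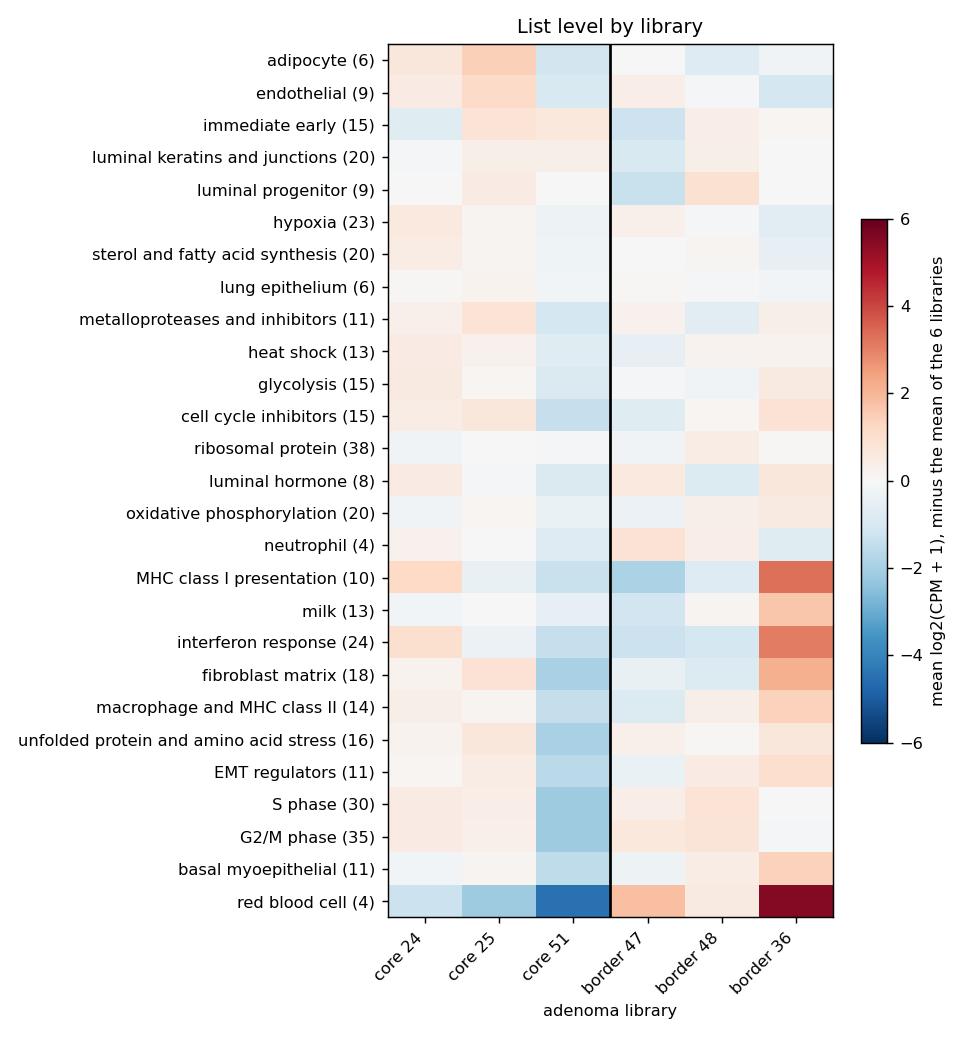
Level of each gene list in the 3 adenoma core libraries (left) and the 3 adenoma border libraries (right), as the mean log2(CPM + 1) of its genes minus the mean of the 6 libraries. The number of genes with a mean of at least 5 CPM over the 32 libraries of the series stands in brackets, and lists with fewer than 4 are left out. Border 36 is highest for interferon response, MHC class I and red blood cell genes, and core 51 is lowest for S phase and G2/M.

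**Figure D4:**
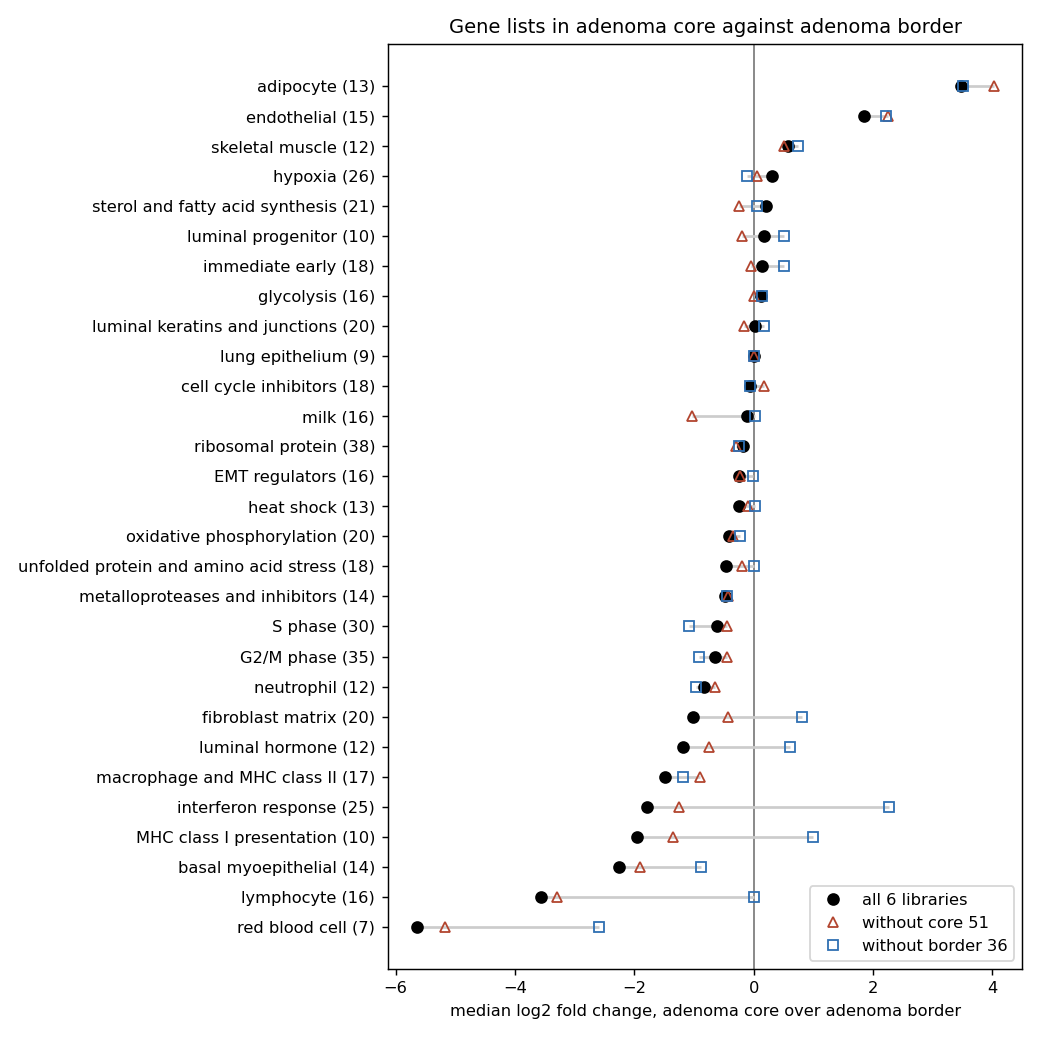
Median log2 fold change of each list, adenoma core over adenoma border, with all 6 libraries (filled circles), without core 51 (triangles) and without border 36 (squares), with the number of genes tested in brackets. The interferon list lies at -1.78 with all libraries and at 2.27 without border 36, while the red blood cell list stays below 0 in all 3 settings.

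Luminal state and stress genes showed no common direction. Kit, a receptor of luminal progenitors, was measured at 65.4, 124 and 357 CPM in core and 18.4, 83.4 and 46 CPM in border, and the 10 progenitor genes had 5 higher and 5 lower estimates. Elf5, a transcription factor of milk-producing cells, had 252, 237 and 586 CPM in core and 200, 263 and 200 CPM in border. Esr1, the oestrogen receptor, had 29.8, 11.1 and 0.855 CPM in core and 91.4, 0 and 0.742 CPM in border. Its list of 12 tested luminal hormone genes had 3 higher and 9 lower estimates, with a median of -1.18. Without border 36 that list had 8 higher and 4 lower, with a median of 0.6. Dsp, a desmosome protein, had 37.4, 100 and 204 CPM in core and 26, 2.88 and 4.45 CPM in border without overlap. Its log2 fold change was 3.36 ± 1.48 in adenoma and 3.30 in carcinoma (unadjusted p = 0.0272 and 0.0219 in edgeR). The adenoma estimate was 2.49 without core 51 and 2.83 without border 36. In carcinoma Dsp had 9.02 to 203 CPM in core (median 25.5) and 0.337 to 8.63 CPM in border. There the lowest core value was close to the highest border value, and the highest core value came from carcinoma core 06. The median was -0.24 for heat shock genes and -0.46 for genes of unfolded protein and amino acid stress. The 18 immediate early genes had a median of 0.14, and Fos, a member of the AP-1 complex, had 4.62, 196 and 244 CPM in core and 48, 114 and 25 CPM in border. Regulators of epithelial-mesenchymal transition had a median of -0.24. Among them Tgfb3, a growth factor, had 86.1, 77.1 and 44.5 CPM in core and 139, 108 and 390 CPM in border.

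The same positions in carcinoma, in libraries that do not enter the adenoma comparison, also gave no called gene, with 0 (0%) of 22676 tested and a smallest adjusted p of 0.754 in edgeR. At an unadjusted p under 0.05 there were 1295 genes, or 653 when only the libraries of the contrast were fitted. The DESeq2 Wald test called 435 and limma voom 5. The difference between the core-border effects of adenoma and carcinoma was called for 0 (0%) genes in edgeR, with a smallest adjusted p of 0.0822 for Cpe. At an unadjusted p under 0.05 there were 2025 genes, or 1358 when only the libraries of the contrast were fitted. DESeq2 called 815 and limma voom 0. Of the 797 genes with all adenoma core libraries above border, 6 had all carcinoma core libraries above all carcinoma border libraries (0.753%, against 0.507% of all genes tested) and 7 had them below (0.878%, against 0.728%). Of these 797, 57.5% had a carcinoma log2 fold change above 0, against 55.1% of all genes. Among genes that averaged at least 10 CPM these shares were 56.6% and 51.1%. Of the 531 genes with all adenoma core libraries below border, 52% had one below 0 in carcinoma, against 41.6% of all genes, and at 10 CPM or more the shares were 53.2% and 48.9%.

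Mfge8 and Mgp had the same direction in both stages. Most of the other described genes of smallest p with lower core values had it too, with large SEs in carcinoma. The carcinoma log2 fold change was -1.07 ± 0.89 for Tlr4, -1.25 ± 0.87 for Isoc1 and -0.9 ± 0.77 for Zfhx3. It was -0.69 ± 1.36 for Adgrg2 and -0.67 ± 1.3 for Hba-a1, but 0.95 ± 1.25 for Mbd5. Tlr4 had at most 22.3 CPM in carcinoma core and at least 25.3 CPM in carcinoma border. Mfge8 was measured at 31.6 to 1095 CPM in carcinoma core (median 225, n = 6), against 258, 2178 and 2151 CPM in carcinoma border. Its log2 fold change was -1.92 ± 0.63 in carcinoma with unadjusted p = 0.00386 and adjusted p = 0.772 in edgeR. Mgp was measured at 6.86 to 237 CPM in carcinoma core (median 39), against 40.4, 497 and 431 CPM in carcinoma border, with a log2 fold change of -2.23 ± 0.77. For Mfge8 and Mgp the groups overlapped in carcinoma. The collagens Col1a1 and Col3a1 had log2 fold changes of -2.11 and -2.56 in carcinoma, against -1.45 and -2.06 in adenoma, where the values without border 36 were 0.79 and -0.86. In carcinoma 19 of the 20 fibroblast and matrix genes had a lower estimate in core. Fibroblast markers thus moved with Mfge8 and Mgp in carcinoma, and their part in these values was not tested.

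Cpe did not have the adenoma order in carcinoma. Cpe was measured at 36.2 to 211 CPM in carcinoma core (median 63.8) and 114 to 230 CPM in carcinoma border, a log2 fold change of -1.04 ± 0.82. The difference between the adenoma and carcinoma effects was 7.47 on the log2 scale, with an adjusted p of 0.0822 in edgeR. Every carcinoma library thus held more Cpe than the highest adenoma border library, at 4.8 CPM.

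**Figure D5:**
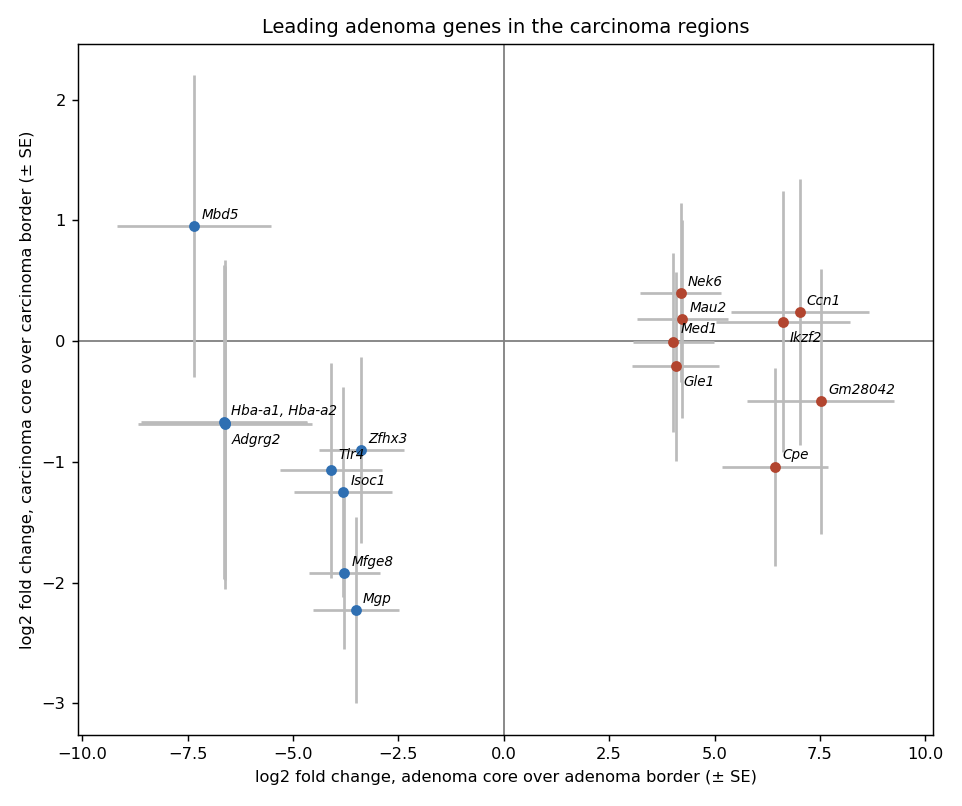
Log2 fold change of core over border in adenoma (horizontal) and in carcinoma (vertical) for the leading genes, with SE bars, for genes with counts in both adenoma groups. Red points have higher and blue points lower values in adenoma core, and Mfge8 and Mgp lie below 0 on both axes while Cpe lies at 6.43 in adenoma and -1.04 in carcinoma.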

How the data were processed

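The deposited values are unnormalized counts, whole numbers for 24454 gene IDs in 32 libraries. STAR and the mm10 genome are named in the submitters' processing notes. The deposited counts are labelled quasR, but the sources used here do not state the strand setting. Per the labels' protocols, cDNA was amplified by PCR and no molecular identifiers are mentioned. Counts may then hold copies of 1 molecule, and floors cover counting error only. Symbols and positions came from RefSeq GRCm38.p6 (24374 IDs matched, 80 did not).

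Counts were filtered with filterByExpr, TMM-scaled and fitted by the quasi-likelihood model of edgeR 4.0.16 (R 4.3.3) over 32 libraries in 11 groups of stage and site, with 21 residual degrees of freedom, and tested two-sided at an adjusted p of 0.05. SE is the log2 fold change divided by the root of F. DESeq2 1.42.0 and limma 3.58.1 were alternatives. CPM uses TMM library sizes. The fit was also run on simulated counts drawn with its own dispersions, which cannot show whether the model suits these libraries. Named genes were the 10 of smallest p each way (20 CPM and 10 counts in the higher group), 3 per list of smallest p with 10 CPM, and a fixed panel. Cdk1, Ccnb2, Elf5, Alas2, Hbb-bs, Csf1r, Plin1, Cd79a, Creb5, Raet1d, Raet1e, Cfap53 and Oscp1 were named outside that rule, most after their values were seen. Groups and lists were chosen with earlier results of these data known. Some genes that the naming rule selects are not reported here.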

Additional observations from a re-analysis of the deposited data

Results flagged for a closer look

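On the CPM scale, Mgp was flagged within carcinoma core. Of its 6 libraries, carcinoma core 54 had 237 CPM, and the gap to the next highest library (74 CPM) was 0.708 of the range of the group, above Dixon's limit for 6 samples. That limit flags about 1 in 20 groups by chance where values are normally distributed, and 7 measures of carcinoma core were examined. The Mgp values were skewed, at 6.86, 15.7, 17.2, 60.7, 74 and 237 CPM, so that rate is not known to hold here. The gap was not examined on a log scale, so no conclusion is drawn from the flag. Groups of 3, such as adenoma core and adenoma border, cannot be examined this way.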

How the results depend on the processing

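No paired analysis was possible because the labels number the regions individually and share no replicate number between groups. For adenoma core against border, the count of called genes was 0 by edgeR and moved to 1297 with DESeq2, 35 with limma voom, 2 without a filter on low counts (Cpe and Mfge8) and 9 with reporter colour as a term. The last included Cpe, Ccn1, Gm28042, E2f2 and Olfr1247 with higher and Mfge8, Mgp and Armcx2 with lower core estimates. The count stayed at 0 with RLE size factors, fewer libraries in the fit, detected genes as a term, and without the most abundant gene ID, and ranged from 0 to 1 as each library was left out. For carcinoma it moved to 435, 5 and 2 with DESeq2, limma voom and colour, and for the difference between stages to 815, 1 and 5 with DESeq2, no filter and colour, each with a range of 0 to 1 as libraries were left out (Pag1 in carcinoma without core 37, Cpe in the difference without adenoma border 47 or carcinoma core 54). The causes were not tested. The proliferation score difference ranged from -1.3 to 0.01 as libraries were left out and from -0.92 to -0.8 in the other settings. The difference in detected genes ranged from -803 (without core 24) to 2230 (without core 51), and was 645 at 10 counts and 404 after thinning to the smallest total. Genes without overlap between the groups numbered 797 and 531, and between 1341 and 2215 (core above) and 775 and 1478 (core below) with 1 library fewer, where separation is easier by construction. Of 122 named genes, 35 changed the sign of their log2 fold change in at least 1 setting, and 20 of 29 list medians did. With 3 patches a group and a dispersion of 2.35, genes that differ little cannot be resolved here.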
